A study of Mus musculus with 2 samples.

Results

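Oligodendrocytes are the cells that wrap axons of the central nervous system in myelin. The set described here is 10 genes of their lineage, chosen by name: the transcription factor genes Olig1, Olig2, Sox10 and Myrf, the precursor surface genes Pdgfra and Cspg4, and the myelin genes Mbp, Mog, Mag and Cnp. They are 10 of the 37310 genes of the GENCODE vM1 annotation, in which Myrf still has its older symbol Gm98. The question is how much of this lineage can be read in brains taken before myelin forms, and which forms of the transcripts the reads come from.

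The study sequenced F1 brains of reciprocal crosses between the mouse strains C57BL/6J (B) and CAST/EiJ (C) to ask which genes are imprinted. The samples analysed here are 2 libraries of polyA+ RNA from whole brain at embryonic day E17.5, each from 1 embryo, frozen in liquid nitrogen on dissection. BxC had a C57BL/6J mother and a CAST/EiJ father, and CxB the reverse, and the labels name no treatment, transgene or deletion. The reads are single-end and 36 bases long, and the deposited counts sum to 128944754 of them for BxC and 109719746 for CxB, if the count on each alignment line is the number of identical reads it stands for, a meaning inferred from the values. These sums are above the average number of reads per library that the methods give, so that the totals, and the RPKM levels scaled by them, rest on a meaning that could not be settled.

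Each cross is represented by 1 embryo, so the spread between embryos is unknown and the crosses were compared without a test. Levels are exon reads per kilobase of annotated exon and per 1000000 reads of the library (RPKM), with exact 95% Poisson intervals. These intervals cover counting error only and treat every read as independent. Copies that PCR makes of 1 molecule are not independent reads, so the intervals are too narrow to the extent that such copies were counted. In a whole brain, fewer cells of a type and less RNA per cell cannot be told apart.

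In the lineage, OLIG2 acts early, when ventral progenitors take the fate of oligodendrocyte precursors, and SOX10 follows and remains on through maturation. Precursors divide and migrate under platelet-derived growth factor, which they sense with the receptor encoded by Pdgfra, and they carry the NG2 proteoglycan encoded by Cspg4. MYRF, together with SOX10, turns on the myelin genes when precursors mature, which in the mouse forebrain takes place mainly after birth. The Mbp gene has an additional upstream promoter, whose golli transcripts are made in neurons, in immune cells and in the oligodendrocyte lineage, whereas the classic promoter gives the proteins of compact myelin.

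Splice junctions tell the forms of a transcript apart, and the joined exon ends on which the account of Pdgfra and Mag rests are given first. Each line reads 5′ to 3′ on the coding strand of the NCBIM37 assembly, the same build as mm9, and capitals mark the downstream exon. Pdgfra has alternative first exons that join the same second exon, and its transcripts then run on to exons 3 and 4:

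Pdgfra exon 1 to exon 2: acatagaaggagaagGTCTCAGGAGCTATG
Pdgfra second first exon to exon 2: cgccggagccagcggGTCTCAGGAGCTATG
Pdgfra exon 2 to exon 3: gctgtctcctcacagGGCCGGGCCTCATCT
Pdgfra exon 3 to exon 4: acatctatgtaccagACCCAGACATGGCCT

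The first of these joins chromosome 5 position 75548482 to position 75558256, the next joins 75552374 to the same 75558256, the junction of exon 2 to exon 3 joins 75558316 to 75559560 and the last joins 75559877 to 75562536. In Mag, on the minus strand of chromosome 7, a junction that no annotated model holds joined position 31699838 to position 31697898, so that the 53-base second exon of the annotation is skipped. The annotated first exon has 14 bases, and the first base of this line lies just upstream of it:

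Mag exon 1 to exon 3: agtcagatcgtccaaGTTGAAAGGCCACTT

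All 10 genes had exon reads in both libraries, and their RPKM levels fell into 3 ranges. Olig1 and Olig2 were above 10 RPKM, 6 genes (Pdgfra, Sox10, Mog, Cnp, Mbp and Cspg4) lay between 3.61 and 8.85 RPKM, and Mag and Myrf were under 1 RPKM in each library. The order of the genes was the same in BxC and CxB, with the exception of Pdgfra and Sox10, which changed places. These ranges depend on what is counted. Over coding exons only, Sox10 (11.4 RPKM), Mbp (10.4 RPKM) and Mog (10.05 RPKM) came near Olig2 (10.6 RPKM) in BxC. With each alignment line, a position and strand, counted once, Mag rose to 1.57 and 1.71 RPKM, Myrf to 1.58 and 1.60 RPKM and Cspg4 to 6.08 and 5.64 RPKM in BxC and CxB. Sums over exons do not separate the forms of a transcript, and for Pdgfra, Mbp and Mog the reads were concentrated in parts of the gene, as the exon values of each gene show.

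**Figure D1:**
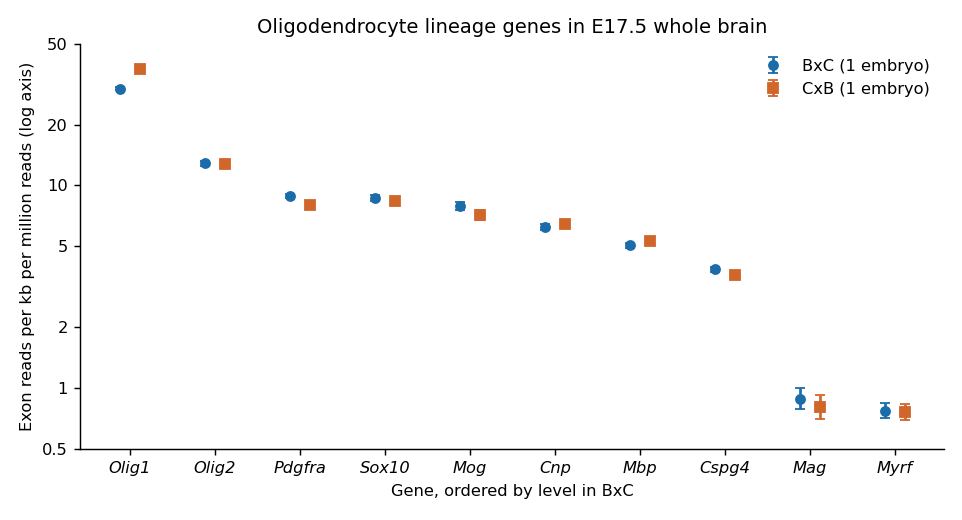
RPKM levels of the 10 lineage genes on a log axis, for the BxC library (circles) and the CxB library (squares), each of 1 embryo, with bars for the 95% Poisson interval of counting error. Olig1 stood highest, at 30.1 RPKM in BxC and 37.6 in CxB, and Mag and Myrf were the only genes under 1 RPKM over all exons.

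Among the transcription factors, Olig1, a single-exon gene on chromosome 16 (91270014 to 91272184), had the most reads, 8428 in BxC and 8945 in CxB. Its level was 30.1 RPKM (95% interval 29.5 to 30.8) in BxC and 37.6 RPKM (36.8 to 38.3) in CxB, above 94.0% and 95.5% of the 22380 protein-coding genes. Its neighbour Olig2 had 4035 and 3431 exon reads and, over all exons, the same level in both libraries, 12.8 RPKM. CxB was thus higher for Olig1, and the counting intervals of the libraries did not overlap, while for Olig2 they overlapped almost fully. Over coding exons only, Olig2 stood at 10.6 RPKM in BxC and 11.5 in CxB, and with each alignment line counted once at 13.2 and 13.0.

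Only 5 reads in BxC and 7 in CxB crossed the single intron of Olig2, which lies near the 5′ end of the gene. Its second exon, with the whole coding sequence, stood at 13.1 RPKM in each library and its first exon at 7.98 and 7.27 RPKM.

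Sox10, on the minus strand of chromosome 15 (78985343 to 78994920), had 3028 and 2500 exon reads, 8.66 RPKM (8.35 to 8.97) in BxC and 8.40 RPKM (8.07 to 8.73) in CxB. The 3 introns between its exon blocks were all crossed by spliced reads. From the 5′ end the counts were 18, 31 and 80 reads in BxC and 4, 28 and 62 in CxB. The number of junction reads rose toward the 3′ end in both libraries.

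Myrf, the factor that drives maturation, was with Mag at the low end of the 10 genes. It had 565 exon reads in BxC and 473 in CxB, or 0.772 RPKM (0.709 to 0.838) and 0.759 RPKM (0.692 to 0.831). Over coding exons only it stood at 1.01 and 1.11 RPKM, above Mag at 0.929 and 0.906 RPKM. About 43% of protein-coding genes were lower (42.9% and 42.8%). Despite this level, 45 reads in BxC and 52 in CxB crossed its annotated introns, 7.96% and 10.99% of its exon reads, against a median of 7.12% and 6.95% over the multi-exon protein-coding genes with at least 100 exon reads. Spliced Myrf transcripts were therefore present in each brain at a low level.

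Of the surface genes of precursors, Pdgfra on chromosome 5 (75548316 to 75594229) had 7691 exon reads in BxC and 5908 in CxB. Over all its exons this gave 8.85 RPKM (8.66 to 9.05) and 7.99 RPKM (7.79 to 8.20). The reads were spread very unevenly. Its longest coding model, of 23 exons, starts with the second first exon and leaves out the upstream one. Over the first 3 exons of that model, the level was 35.8 RPKM (34.4 to 37.2) in BxC and 27.6 RPKM (26.3 to 28.9) in CxB. Over exons 4 to 22 it was 4.43 RPKM (4.21 to 4.65) and 4.28 RPKM (4.05 to 4.52), and over the 3252-base last exon 4.81 RPKM (4.60 to 5.02) and 5.07 RPKM (4.84 to 5.31). The pooled middle exons and the last exon were thus at a similar level, with single exons from 1.59 to 8.62 RPKM, and the 5′ part lay above all of them. With the upstream first exon in place of the second, the level over the first 3 exons was 53.8 RPKM (52.1 to 55.6) and 44.0 RPKM (42.3 to 45.7).

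In the longest coding model, the ratio of the first 3 exons to exons 4 to 22 was 8.09 in BxC and 6.44 in CxB. The median of the same ratio was 1.29 in BxC and 1.29 in CxB over the 6420 and 6421 protein-coding genes with a coding model of at least 10 exons and at least 100 reads in each library. Of these genes, 97.3% had a lower ratio than Pdgfra in BxC and 96.5% in CxB. This comparison was chosen after the exon values were seen. With each alignment line counted once, the ratio for Pdgfra was 2.62 in BxC and 2.60 in CxB, so the size of the excess depended on how identical reads were counted. Counting lines once lowers densely covered stretches more than sparse ones, and no median over genes is given on this scale. With the upstream first exon in place of the second, also chosen after seeing the data, the values were 12.2 for BxC and 10.3 for CxB, or 2.66 and 2.78 with lines counted once.

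**Figure D2:**
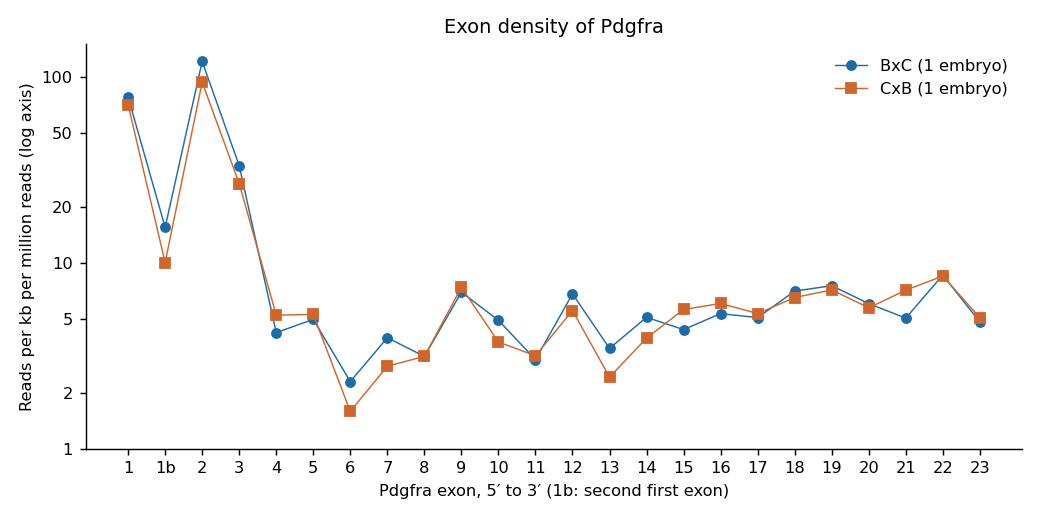
Exon density of Pdgfra in RPKM on a log axis, from the 5′ to the 3′ exon, with 1b for the second first exon, in BxC (circles) and CxB (squares). The level dropped from exon 2, at 122 RPKM in BxC and 94.0 in CxB, to exon 3, at 33.4 and 26.8 RPKM. It dropped again to exon 4, at 4.22 and 5.24 RPKM, and exons 4 to 23 stayed between 1.59 and 8.62 RPKM. Reads that overlap an exon in part count in full, which raises short exons such as exon 2.

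The level fell in steps, first from exon 2, of 61 bases, at 122 RPKM in BxC and 94.0 in CxB, to exon 3. It fell again at the end of exon 3. A read that overlaps an exon only in part was counted in full. This raises the density of a short exon such as exon 2 more than that of the 318-base exon 3. The 956 and 629 reads over exon 2 lay on 73 and 71 alignment lines, and the 1370 and 934 over exon 3 on 254 and 197. How much of the first step comes from this counting was not tested. Exon 2 was joined to exon 3 by 58 reads in BxC and 51 in CxB. Exon 3 was joined to exon 4, as in the last Pdgfra sequence shown above, by 3 and 6 reads. Unspliced reads that ran from exon 2 into the next intron numbered 72 in BxC and 41 in CxB. Those that ran from exon 3 into the intron after it were fewer, 43 and 17. They covered the start of the intron, with 43 reads in BxC and 18 in CxB over its first 250 bases, and the next 250 bases had 0 reads in both libraries. The junctions further down varied widely, from 4 reads between exons 6 and 7 to 46 between exons 17 and 18 in BxC and from 2 to 43 reads in CxB. The count from exon 3 to exon 4 was thus close to the lowest of the later junctions and did not stand apart from them.

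The use of the first exons differed in number between the libraries. The upstream first exon was joined to exon 2 by 164 reads in BxC and 181 in CxB, and the second first exon by 39 and 13 reads. The second first exon thus held 19.2% (exact Clopper-Pearson 95% interval 14.0 to 25.3) of these reads in BxC and 6.70% (3.62 to 11.2) in CxB. Counted as distinct lines, it held 11 of 32 and 10 of 36, or 34.4% (18.6 to 53.2) and 27.8% (14.2 to 45.2), and these intervals overlapped. Lines with many identical reads therefore set the size of this difference between the libraries.

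Cspg4, on chromosome 9 (56712911 to 56747677), had 3995 and 3186 exon reads, or 3.85 RPKM (3.73 to 3.97) in BxC and 3.61 RPKM (3.48 to 3.73) in CxB. Its 10 exons were covered evenly, between 3.03 and 5.61 RPKM in BxC and between 2.83 and 5.56 RPKM in CxB, and all 9 introns were crossed by spliced reads in both libraries. Cspg4 is also made by mural cells of blood vessels, and Pdgfra by fibroblasts of the meninges, both of which a whole brain contains. The 7 mural genes summed to 24.2 RPKM in BxC and 22.6 in CxB, led by Rgs5, Pdgfrb and Acta2, and the 6 meningeal fibroblast genes to 59.0 and 52.9 RPKM, led by Col1a1, Col3a1 and Col1a2. The part of these cells in the Cspg4 and Pdgfra reads was not tested.

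Mbp, on chromosome 18 (82644538 to 82755029), had 5478 exon reads in BxC and 4921 in CxB, 5.06 RPKM (4.92 to 5.19) and 5.34 RPKM (5.19 to 5.49). The annotation holds 4 golli models, which start at the 5′ end of the gene, 11 classic models, which start 79317 bases further down at 82723855, and 1 other model. The exon bases upstream of the classic start are annotated in golli models only. They had 1547 reads over 1918 bases in BxC and 1348 in CxB, or 6.26 RPKM (5.95 to 6.57) and 6.41 RPKM (6.07 to 6.76). The classic exons had 1518 and 1273 reads over 2186 bases, or 5.39 RPKM (5.12 to 5.66) and 5.31 RPKM (5.02 to 5.61).

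The order of golli-only and classic sequence depended on which golli stretches were counted. Over all golli-only sequence, the level was above that of the classic exons in both libraries. The order turned when each alignment line was counted once, with 202 lines per kilobase of golli-only exon against 287 of classic exon in BxC and 169 against 237 in CxB. A large share of the golli-only reads lay in the 143 bases of exon 5 directly before the classic start, with 649 reads in BxC and 550 in CxB, although 26 and 18 reads were spliced into them. These 143 bases stood at 35.2 RPKM (32.5 to 38.01) and 35.1 RPKM (32.2 to 38.1). Without them the 4 separate golli exons stood at 4.04 RPKM in BxC and 4.19 RPKM in CxB, below the classic exons. One of the 4, of 1362 bases, was hardly used, with 59 and 10 reads. The other 3 stood at 16.2 and 17.8 RPKM, or 610 and 511 lines per kilobase, above all classic exons pooled on both scales. No classic exon was left out in turn, and 1526 of the 2186 classic bases are the last exon, at 4.34 and 4.40 RPKM. The other classic exons after the first ranged from 0.696 to 11.4 RPKM in BxC and from 1.05 to 8.61 RPKM in CxB. The first golli exon, of 249 bases, was the highest of the 4 golli exons, at 22.3 RPKM in BxC and 25.2 RPKM in CxB. The 76-base and 88-base golli exons stood at 8.16 and 11.5 RPKM in BxC and 7.91 and 10.3 RPKM in CxB. These divisions of the golli-only sequence were chosen after seeing the data.

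A further 2425 reads in BxC and 2312 in CxB lay in a 3953-base stretch that golli models annotate as an extension of exon 5, the exon that holds the classic first exon. Its level was 4.76 RPKM (4.57 to 4.95) and 5.33 RPKM (5.12 to 5.55). This stretch, which ends at 82728095, accounts for the largest number of Mbp reads of the 3 segments, and it is intron in the classic models. Unspliced reads that ran from the classic first exon into it numbered 10 in BxC and 5 in CxB. Which transcripts the reads of this stretch came from was not tested.

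**Figure D3:**
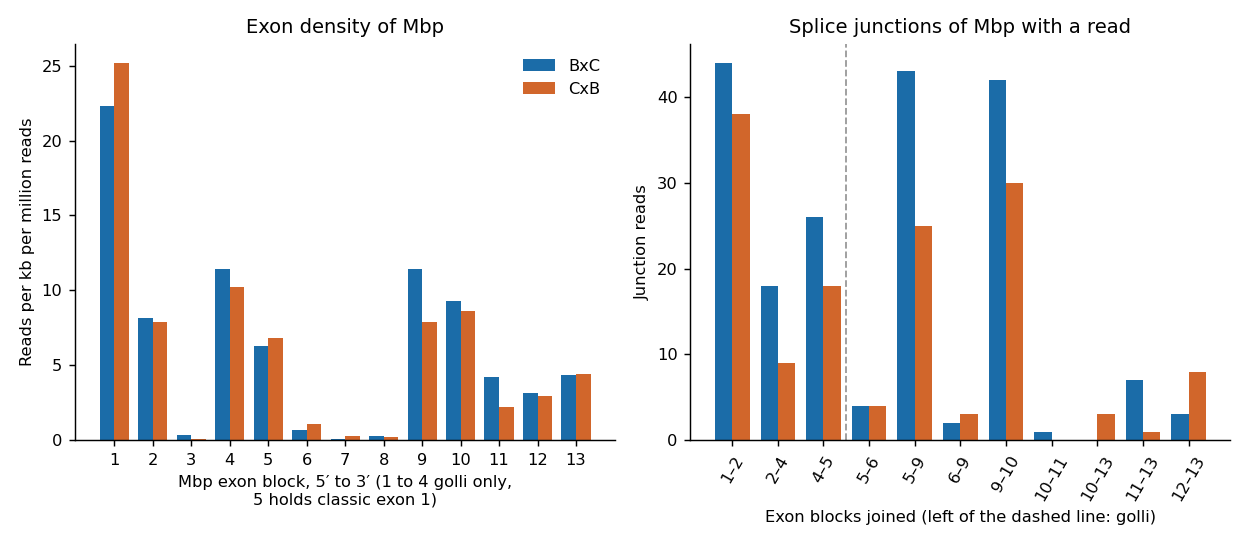
Left, density of the 13 exon blocks of Mbp in RPKM, from 5′ to 3′, in BxC (blue) and CxB (orange). Right, spliced reads over each annotated junction with a read, named by the blocks it joins, with the golli junctions left of the dashed line. The first golli exon had the highest bars among whole blocks, and the junctions from block 5 to block 9 and from block 9 to block 10 held most of the reads downstream of the classic start.

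Spliced reads were then counted. The 3 golli junctions with reads had 44, 18 and 26 reads from the 5′ end in BxC and 38, 9 and 18 in CxB, so that golli exons were joined all the way to exon 5. Golli junctions held 88 of the 190 reads over golli and classic junctions in BxC, 46.3% (39.1 to 53.7), and 65 of 136 in CxB, 47.8% (39.2 to 56.5). Golli models share exons downstream of exon 5 with classic ones, and this is a share of junction reads, not of transcripts.

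Exon 2 of the classic gene encodes a stretch that is found in the larger MBP proteins, which in rodents are relatively more frequent early in development. Out of the classic first exon, 4 reads in each library joined exon 2, whereas 43 in BxC and 25 in CxB skipped it. That exon is part of exon 5, into which golli exons were spliced by 26 reads in BxC and 18 in CxB. Some of the reads that leave it may therefore come from golli transcripts. Inclusion was 8.51% (2.37 to 20.4) of 47 reads in BxC and 13.8% (3.89 to 31.7) of 29 in CxB, and both intervals are wide at this depth. With each alignment line counted once, it was 15.4% (4.36 to 34.9) in BxC and 14.3% (1.78 to 42.8) in CxB. The following junction, block 9 to block 10, had 42 and 30 reads, but each of the junctions into the last exon, which carries the 3′ end, had at most 7 in BxC and 8 in CxB.

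Mog encodes a protein of the outer face of the myelin sheath and is among the last myelin genes to be switched on. It had 1731 exon reads in BxC and 1332 in CxB, which as an exon sum gave 7.89 RPKM (7.53 to 8.27) and 7.14 RPKM (6.76 to 7.53), above Mbp and Cnp. These reads held no spliced Mog transcript. No read in either library crossed any of its 8 annotated introns, and the first 3 exons, 749 bases with the start of the protein, had 1 read in BxC and 2 in CxB. At this depth, 3 reads over these exons would be 0.0311 RPKM in BxC and 0.0365 RPKM in CxB.

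Such a gene is uncommon in these libraries. Of 9895 multi-exon protein-coding genes with at least 1000 exon reads in BxC, 94 had no read over an annotated junction, and 87 of 9480 in CxB. The introns of Mog held 3497 and 3013 reads, and their density was 32.97% of the exon density in BxC and 36.9% in CxB, against a median of at most 4.05% over protein-coding genes. A higher ratio than that of Mog was found for fewer than 4% of the genes (96.3% were lower in BxC and 97.1% in CxB).

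The reads lay at the 3′ end of Mog, which faces the 3′ end of Zfp57. Zfp57, a gene for a zinc finger protein that maintains imprints, is on the other strand of chromosome 17, ends at a distance of 110 bases from Mog and was well covered, at 32.8 RPKM in BxC and 32.9 RPKM in CxB, with 356 and 312 junction reads. In each of the 20 windows of 250 bases over the 5 kilobases after the annotated end of Zfp57, unspliced reads started, between 34 and 1207 per window in BxC and between 33 and 970 in CxB. These windows had 5389 reads in BxC and 4486 in CxB. In the 29 windows from 5500 bases to the 5′ end of Mog, there were 28 and 29 reads in all. The coverage thus ran on from the end of Zfp57 through the 5 exons at the 3′ end of Mog and the introns between them, and stopped before its exon 3.

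**Figure D4:**
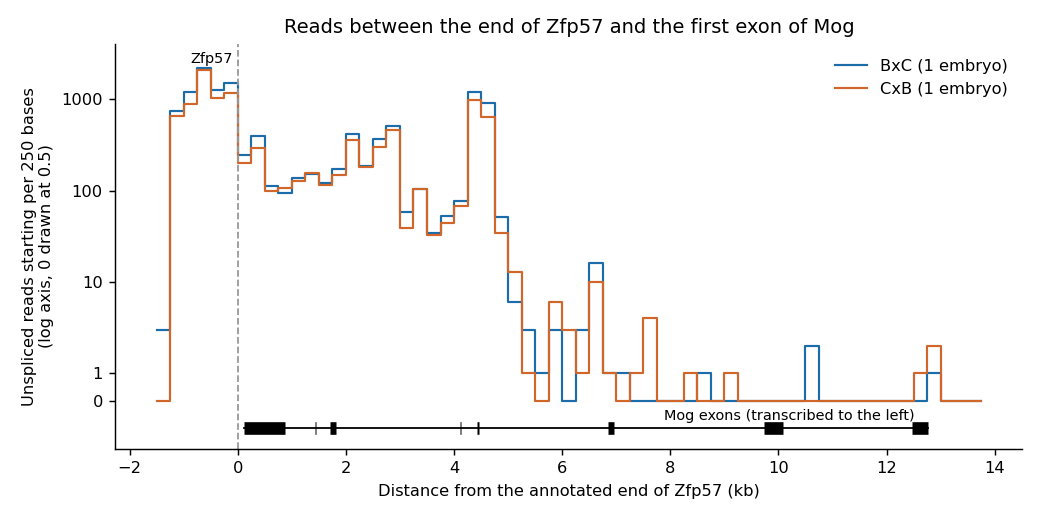
Unspliced reads that start in each window of 250 bases, on a log axis with 0 drawn at 0.5, against the distance from the annotated end of Zfp57 (dashed line), in BxC (blue) and CxB (orange); black boxes are the Mog exons, with the 3′ end of the gene on the left. Windows with 33 or more reads continued for 5 kilobases, whereas the region with the first 3 Mog exons, on the right, held almost none.

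A single narrow pile made up much of the Mog count. The fourth exon, of 21 bases (chromosome 17, 37152013 to 37152033), was overlapped by 802 of the 1731 exon reads in BxC and by 594 of the 1332 in CxB. Of these, 792 and 585 ran without a splice across the side of the exon that faces the 3′ end of the gene. All reads over the exon came from 38 and 34 alignment lines. The exon is shown here in capitals with 40 bases of intron on either side, 5′ to 3′ on the minus strand, 37151973 to 37152073, as this stretch alone changed the apparent level of the gene:

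Mog 21-base exon: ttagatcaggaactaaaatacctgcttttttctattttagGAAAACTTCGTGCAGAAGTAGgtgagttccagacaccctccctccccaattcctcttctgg

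The next annotated feature in that intron, a 7SK RNA on the plus strand, starts 4708 bases from the end of Zfp57, whereas the exon lies 4433 to 4453 bases from it, and the coverage ended near this feature. The more frequent read strand for most genes here is the one opposite to the gene. For Mog this is the strand on which Zfp57 is annotated, and for a gene on the Zfp57 strand it is the strand of Mog. On the strand opposite to Mog were 66.6% of its exon reads in BxC and 66.3% in CxB, against a median of 56.2% and 56.9% over genes that overlap no other gene. The shares of Mog were further from even than these medians, toward the strand more frequent for genes on the Mog strand. The methods name a protocol that keeps strand, but the medians lie near an even split, and reads of a gene and of its antisense partner could not be told apart. The share of Mog reads that belongs to transcripts of Zfp57 was not tested.

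Mag, a gene for an adhesion protein of the inner face of the sheath, on the minus strand of chromosome 7 (31684202 to 31699851), had 277 exon reads in BxC and 215 in CxB. Its level was 0.885 RPKM (0.784 to 0.996) and 0.807 RPKM (0.703 to 0.923), above 44.1% and 43.4% of protein-coding genes, and its interval overlapped that of Myrf in each library. Only 3 and 5 reads crossed an annotated junction. The unannotated junction of exon 1 to exon 3 shown above had 11 reads on 3 lines in BxC and 5 reads on 3 lines in CxB, while the annotated junctions into and out of exon 2 had 0 in each. The junction that skips exon 2 of the annotation was therefore the only one seen at the 5′ end of Mag. None of the annotated junctions that join exon 3 through to exon 6 had a read in either library, and exon 4 had 1 read in each. Spliced reads thus did not link this junction to the rest of the gene.

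Cnp encodes the enzyme of non-compact myelin whose level rises early in the lineage. On chromosome 11 (100436218 to 100453043), it had 2933 exon reads in BxC and 2579 in CxB, 6.25 RPKM (6.03 to 6.48) and 6.46 RPKM (6.21 to 6.71). The junction of its first exon had 105 and 88 reads, and the 2 junctions further down had 10 and 18 reads in BxC and 13 and 23 in CxB. The last exon of 1 Cnp model lies within the neighbouring gene Dnajc7, where 356 and 343 reads cannot be assigned, and no read was spliced into it from Cnp. Without exon bases of other genes Cnp stood at 5.86 RPKM in BxC and 5.98 RPKM in CxB, so its place in the order did not depend on them.

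Between the libraries, none of the 10 genes differed by 1.5-fold or more. Over the 15427 genes with at least 100 reads in each library, 73 (0.473%) were at least 1.5-fold higher in CxB and 96 (0.622%) at least 1.5-fold lower, so that 0 of 10 is close to this background. The log2 ratio of CxB over BxC, after division by the library totals, ranged from -0.15 for Pdgfra to 0.32 for Olig1, with a median of -0.03, against a median of -0.0011 over all genes tested. The ratio of Olig1 was 1.25-fold, with a 95% counting interval of 0.28 to 0.36 on the log2 scale. The intervals of Pdgfra (-0.20 to -0.10), Mog (-0.25 to -0.04), Cspg4 (-0.16 to -0.03) and Mbp (0.02 to 0.13) also left out 0, and those of Olig2, Sox10, Myrf, Mag and Cnp held it. With each alignment line counted once, Mbp turned, at 6.30 RPKM in BxC against 6.14 in CxB. Pdgfra (8.68 against 8.50) and Mog (6.32 against 6.23) came closer, while Olig1 (27.0 against 33.4) and Cspg4 (6.08 against 5.64) changed little. Over coding exons Mbp also turned (10.4 against 9.95), and the others did not. Whether any of these differences belongs to the cross, to the embryo or to the library cannot be told apart.

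**Figure D5:**
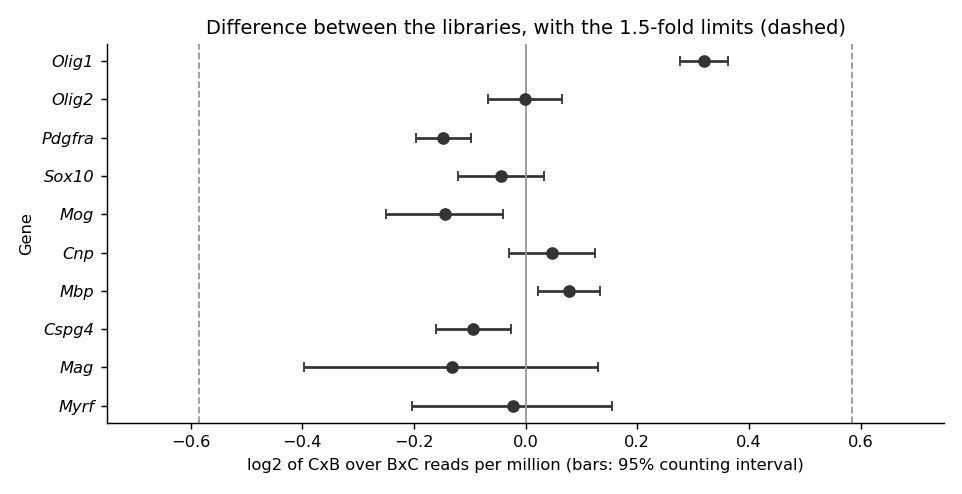
The log2 ratio of CxB over BxC, scaled by the library totals, for each of the 10 genes, with the 95% interval of counting error as bars and dashed lines at a 1.5-fold difference. All 10 genes and their intervals lay between the dashed lines, and Olig1, at 0.32, was farthest from 0.

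The other genes of the pathway were described from lists. Of 14 early regulators of the lineage, 13 were at 1 RPKM or more in each library, and none of the 14 was past 1.5-fold. The highest were Id2, an inhibitor of helix-loop-helix factors, at 31.5 RPKM in BxC and 34.1 in CxB, Tcf7l2, an effector of Wnt signals, at 27.0 and 25.8 RPKM, and Id4, a relative of Id2, at 18.4 and 20.1 RPKM. The median of the list was 8.48 RPKM in BxC and 9.24 RPKM in CxB. These factors are also used by neural progenitors and neurons, and the reads do not say which cells they came from.

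All 8 genes for surface and matrix proteins of precursors were above 1 RPKM and within 1.5-fold. Cspg5, for neuroglycan C, was at 58.0 RPKM in BxC and 54.5 in CxB, Ptprz1, for a receptor phosphatase, at 39.4 and 40.9 RPKM, and Bcan, for brevican, at 26.8 and 32.1 RPKM. These levels are above those of Pdgfra and Cspg4. Radial glia and astrocytes share several of these genes, and the 7 markers of those cells, led by Fabp7, Slc1a3 and Slc1a2, summed to 215 RPKM in BxC and 226 RPKM in CxB.

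Of 12 ligands and receptors, 9 were at 1 RPKM or more in each library, but not the same 9. S1pr5 was at 1.01 RPKM in BxC and 0.977 in CxB, and Shh at 0.893 and 1.01 RPKM. Lingo1, which encodes an inhibitor of maturation that is abundant in neurons, was at 54.3 RPKM in BxC and 51.9 in CxB. Pdgfb, for a ligand that also binds the mural receptor, was at 8.10 and 7.54 RPKM, and Fgfr3, a fibroblast growth factor receptor of progenitors, at 7.68 and 8.74 RPKM. Erbb3, a neuregulin receptor best known in Schwann cells and in the oligodendrocyte lineage, was the only gene of the lists past 1.5-fold, with 201 reads in BxC and 105 in CxB, or 0.259 and 0.159 RPKM. Its log2 ratio was -0.70, with a counting interval from -1.06 to -0.36 that reached inside the 1.5-fold limit of 0.58. Over all 15427 genes tested, 1.10% were past 1.5-fold, so that 1 such gene among the lists does not stand apart from this background.

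The 21 myelin and late genes reported here were lower. Their median was 1.98 RPKM in BxC and 1.73 RPKM in CxB, 11 were at 1 RPKM or more, and 6 (Mobp, Opalin, Fa2h, Enpp6, Ermn and Aspa, named after their values were seen) had fewer than 100 reads in at least 1 library. The 15 others were within 1.5-fold. Opalin, a late marker of mature oligodendrocytes, had 2 reads in BxC and 4 in CxB, and Mobp, the gene of another late myelin protein, 20 and 19. Other genes of the list were well above these, also named after their values were seen. Cldn11 was at 6.30 RPKM in BxC and 5.11 in CxB, with 105 and 62 junction reads. Bcas1 was at 2.86 and 2.56 RPKM, with 137 and 106 junction reads. The highest, Gpm6b at 37.4 and 36.6 RPKM, Trf at 12.9 and 11.5 RPKM and Enpp2 at 6.59 and 6.75 RPKM, are not restricted to oligodendrocytes, since Gpm6b is also expressed in neurons and Enpp2 and Trf in the choroid plexus.

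Markers of other cells give the surroundings of these values. The 8 neuronal genes, led by Tubb3, Stmn2 and Syt1, summed to 1437 RPKM in BxC and 1312 RPKM in CxB. The 4 Schwann cell and neural crest genes reported here, from cells that can also express Sox10, Mag, Mbp and Cnp, summed to 6.98 RPKM in BxC and 7.07 RPKM in CxB. Most of this came from Pmp22, a gene also expressed in brain, at 5.53 and 5.92 RPKM, and Foxd3 and Prx followed, both under 1 RPKM. In the list of leukocytes and red cells, Hbb-b1, Hba-a1 and Csf1r were highest, and the T cell gene Cd3e had 1 read in BxC and 0 in CxB, which allows up to 3 reads. Reads from the near-identical copies of the globin genes may not align uniquely. The part of any of these cells in the levels of the 10 genes was not tested.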

How the data were processed

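The authors deposited, per library, the mm9 positions of uniquely aligned 36-base reads with a whole-number count on each line, and the submitters' processing notes name Novoalign. By their methods, the alignment targets were the genome, gene models and sequences of splice junctions, so that spliced reads are listed as paired blocks of at least 5 bases. The count was taken to be how many identical reads a line stands for, a meaning inferred from the values. No normalization had been applied, and 0 columns were left unassigned. The deposited catalog of known imprinted genes was not used here.

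The members and lists were chosen with earlier results of these data known. Reads of either strand whose aligned block overlapped the union of a gene's exons in GENCODE vM1 (NCBIM37, the same build) were summed and divided by exon length and by library total (128944754 reads on 36575945 lines in BxC, 109719746 on 31155725 in CxB). Intron reads lie on bases that no gene has as exon. Junction reads match both splice sites of a model exactly. The genes named are all members, the 3 with the highest level in each list, those past 1.5-fold with at least 100 reads in each library, and those without a read. Some myelin and late genes were named after their values were seen. Some genes of the lists are not reported here. Shares are printed for events with at least 20 junction reads in each library. Intervals are exact Poisson, Clopper-Pearson or conditional binomial intervals at 95%, and a count of 0 allows up to 3 reads, 0.0233 reads per 1000000 in BxC and 0.0273 in CxB. No test was made, since each cross has 1 library. Counting and intervals were tested on simulated data. The alternatives counted each line once, took reads of the strand opposite to the gene only, coding exons only or exon bases free of other genes, scaled without chromosomes X and M or by the median ratio, or changed the fold, the read minimum or the junction overhang. Python 3.11.15, numpy 2.4.6, pandas 2.3.3, scipy 1.17.1 and matplotlib 3.10.9 were used.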

Additional observations from a re-analysis of the deposited data

Results flagged for a closer look

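Spliced reads that no annotated model holds were seen within 2 of the 10 genes in more than the 3 reads that a count of 0 allows. In Mag, the junction from position 31699838 to position 31697898 on the minus strand of chromosome 7, which joins exon 1 to exon 3, had 11 reads in BxC and 5 in CxB. All of them had at least 8 bases on both sides. In Myrf, a junction on chromosome 19 from position 10286636 to position 10285163, which skips the exon between the annotated splice sites, had 6 reads in BxC and 0 in CxB. These 6 reads were on 1 alignment line, and none had at least 8 bases on both sides. No control without these transcripts exists in the series, and a cause was not tested.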

How the results depend on the processing

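None of the 10 genes was past the fold limit in any setting tried. Beside it, 1.10% of all genes tested were past 1.5-fold, 0.136% were past 2-fold, 19.1% were past 1.5-fold with a minimum of 1 read and 0.160% with 1000 reads, where 8 of the 10 genes were tested. The share was 0.185% with lines counted once, 0.732% with reads of the opposite strand and 1.10% and 1.12% under other scalings. The pooled level of the 10 genes, all their exon reads over all their exon bases, was 6.73 RPKM in BxC and 6.94 in CxB. It moved beyond its counting interval to 7.47 and 7.65 with each line counted once, 6.84 and 7.05 with reads of the strand opposite to the gene, 6.49 and 6.48 over coding exons, and 7.04 and 7.23 scaled without chromosomes X and M. It stayed within it without exon bases of other genes and without Mog, an alternative added after seeing the data. The golli share of Mbp junction reads stayed within its interval with lines counted once, longer overhangs or 1 strand, and was 35.6% in BxC and 38.3% in CxB when only junctions into and out of exon 5 were compared, also added after seeing the data. The share of the second Pdgfra first exon moved to 34.4% and 27.8% with lines counted once. The intron to exon density over the 10 genes was 4.25% in BxC and 4.15% in CxB, 6.32% and 6.11% with lines counted once and 3.22% and 3.12% with reads of the opposite strand. The causes were not tested. Over coding exons alone Mbp stood at 10.4 RPKM in BxC and 9.95 in CxB, against 5.06 and 5.34 over all exons. The order of golli-only and classic Mbp density turned with lines counted once, and also without the 143 bases before the classic start, to 4.04 against 5.39 RPKM in BxC and 4.19 against 5.31 in CxB. It turned in neither case when the 1362-base golli exon was left out and every classic exon was kept. Mag was below Myrf over coding exons. No paired analysis was possible because each cross has 1 library, and for the same reason no library could be left out. Depth limits Mag, Myrf and the junction counts.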
